A study of Mus musculus with 9 samples.

Results

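The Hox genes are homeobox genes that lie in 4 clusters in the mouse genome, and 37 of them were measured here by a probe set of their own among 19938 genes. A probe set was taken as a Hox gene when the platform annotation gave it exactly 1 gene symbol, made of Hox, a cluster letter and a paralogue number. Each of the 37 had 1 such probe set. The values come from Affymetrix whole-transcript arrays of 3 groups of cultured mouse cells, with 3 arrays each. The iPS cells are induced pluripotent stem cells, called inducible in the labels, which were derived from embryonic fibroblasts. R1 is an established mouse embryonic stem cell line. The MEF are mouse embryonic fibroblasts below passage 3, and per the labels the iPS cells were made from them. According to the design text, R1 and MEF were the controls of the iPS cells, each line had 3 biological repeats, and the question was how the expression profile of the iPS cells compares with both. The labels do not give strain, sex, the reprogramming factors or the number of iPS clones.

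Hox proteins are transcription factors that bind DNA through a homeodomain and give cells of the trunk and limbs their position along the body axis. Within a cluster the genes are numbered by their place, and those with low numbers are used early and towards the head, those with high numbers later and towards the tail and the ends of the limbs. Genes of the same number in different clusters are paralogues, copies of a common ancestor. Cells taken from the body keep part of this pattern in culture, and fibroblasts are known for a Hox pattern that reflects where in the body they came from. In embryonic stem cells the clusters are known to be held silent by Polycomb complexes, which modify histones, and to be opened in order when the cells differentiate with retinoic acid.

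The Hoxa cluster is on chromosome 6, Hoxb on chromosome 11, Hoxc on chromosome 15 and Hoxd on chromosome 2. In the RefSeq annotation (assembly GRCm38.p6) 0 other protein-coding genes lie inside a cluster, but microRNA genes do. Those of the miR-10 and miR-196 families are shown first because they belong to the clusters themselves, and miR-196 is known in the mouse to direct cleavage of the Hoxb8 messenger. Their mature forms are given as in RefSeq, 5′ to 3′, with the seed, bases 2 to 8, in capitals.
miR-10a-5p, from the Hoxb cluster: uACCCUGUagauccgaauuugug
miR-10b-5p, from the Hoxd cluster: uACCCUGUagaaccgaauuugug
miR-196a-5p, from Mir196a-1 in Hoxb and Mir196a-2 in Hoxc: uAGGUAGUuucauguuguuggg
miR-196b-5p, from the Hoxa cluster: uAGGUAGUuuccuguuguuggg
The members of a family share their seed. Counted from 1 at the 5′ end, miR-10b-5p departs from miR-10a-5p by U12A, and miR-196b-5p from miR-196a-5p by A12C.

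Promoters are shown for 3 of the Hox genes that were lower in both pluripotent groups and for Hoxb1 and Hoxd1, which were not called. Each runs from 250 bases before to 50 bases after the RefSeq transcription start of GRCm38.p6, 300 bases in all, with CG dinucleotides in capitals, the sites at which DNA can be methylated.
Hoxa5 (chr6:52204538-52204837, minus strand): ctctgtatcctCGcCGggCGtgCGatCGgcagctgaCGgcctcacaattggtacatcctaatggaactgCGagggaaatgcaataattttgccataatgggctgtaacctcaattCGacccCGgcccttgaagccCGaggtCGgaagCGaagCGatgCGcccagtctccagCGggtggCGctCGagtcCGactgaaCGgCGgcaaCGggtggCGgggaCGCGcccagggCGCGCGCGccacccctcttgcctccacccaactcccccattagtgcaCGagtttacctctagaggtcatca
Hoxd13 (chr2:74667975-74668274, plus strand): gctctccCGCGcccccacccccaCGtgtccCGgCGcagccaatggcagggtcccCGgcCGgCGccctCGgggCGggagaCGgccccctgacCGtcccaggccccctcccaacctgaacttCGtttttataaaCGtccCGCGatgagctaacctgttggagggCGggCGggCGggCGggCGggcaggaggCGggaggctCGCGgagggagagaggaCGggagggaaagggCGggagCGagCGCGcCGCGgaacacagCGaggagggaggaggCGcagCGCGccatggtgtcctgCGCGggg
Hoxc4 (chr15:103034145-103034444, plus strand): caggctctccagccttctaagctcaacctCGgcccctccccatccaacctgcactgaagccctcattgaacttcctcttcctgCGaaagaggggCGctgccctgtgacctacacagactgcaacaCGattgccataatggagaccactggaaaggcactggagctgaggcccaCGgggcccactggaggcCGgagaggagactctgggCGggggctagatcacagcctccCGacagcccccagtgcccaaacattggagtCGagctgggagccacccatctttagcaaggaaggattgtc
Hoxb1 (chr11:96365508-96365807, plus strand): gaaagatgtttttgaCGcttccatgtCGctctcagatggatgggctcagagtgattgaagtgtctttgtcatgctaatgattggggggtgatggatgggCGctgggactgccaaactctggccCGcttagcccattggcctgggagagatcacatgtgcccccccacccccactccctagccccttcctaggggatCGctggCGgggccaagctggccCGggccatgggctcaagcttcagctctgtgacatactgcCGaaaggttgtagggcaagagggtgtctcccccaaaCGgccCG
Hoxd1 (chr2:74762730-74763029, plus strand): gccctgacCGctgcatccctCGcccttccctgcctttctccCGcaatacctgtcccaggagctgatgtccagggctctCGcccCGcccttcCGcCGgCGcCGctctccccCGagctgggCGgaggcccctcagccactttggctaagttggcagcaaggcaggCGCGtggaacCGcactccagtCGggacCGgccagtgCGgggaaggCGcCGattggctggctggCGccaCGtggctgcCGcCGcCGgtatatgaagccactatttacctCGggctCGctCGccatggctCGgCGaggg
These windows hold 29 CG dinucleotides in Hoxa5, 37 in Hoxd13 and 9 in Hoxc4, and 10 in Hoxb1 and 29 in Hoxd1. An entry was found for 21 of the 37 members, with a median of 14 CG dinucleotides and a range of 4 to 45, against a median of 7 over 27025 mouse promoters of the same length. The median was 18.5 over the 6 of these genes called lower in iPS cells than in MEF and 13 over the 15 that were not called, and both kinds held genes with as few as 4. Motifs were searched on both strands. CCAAT was found in 13 of the 21 windows (37.9% of all promoters hold it), AGGTCA, letters that nuclear receptors recognise, in 7 (16.04% of all) and TATAAA in 2, Hoxd13 and Hoxd4 (14.2% of all). TAATTA, a core bound by homeodomains, was found in the Hoxd11 window (5.31% of all). TGATTNAT, a form of the letters bound jointly by Hox and Pbx proteins, was found in the Hoxa2 window (3.36% of all). Other forms of these joint letters were not searched for. The search therefore does not show that other windows, such as that of Hoxb1, lack such a site. A match says only that the letters are present.

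The 9 arrays had median signals of 78.2 to 83.3. All 12 markers of pluripotent cells were called higher in both iPS and R1 cells than in MEF. Their summed signal was 32372 to 34367 on iPS arrays and 39084 to 40422 on R1 arrays, against 684 to 756 on MEF arrays. In iPS against R1, 1 of the 12 was called lower and 0 higher, against 0.461% of all genes called either way. The 12 differences ran from -2.77 to 0.49, with 10 negative and 2 positive. Of 12 fibroblast markers, 10 were lower in both pluripotent groups, with sums of 3662 to 4570 on iPS arrays and 2787 to 3714 on R1 arrays, against 31385 to 36412 on MEF arrays. The other two were Lum, at -0.69 in iPS cells on the log2 scale, and Dcn, which was not lower (0.40). Each group carried the markers of its label. MEF arrays also had signal of skeletal muscle genes, with 8 of 12 called lower and 1 higher in iPS cells, 9 lower and 0 higher in R1 cells, and sums of 1426 to 1569 on iPS arrays and 1146 to 1158 on R1 arrays, against 6838 to 8342 on MEF arrays. The 1 higher was Mylpf, a myosin light chain gene, at 1.57 in iPS cells, 0.36 in R1 cells and 1.21 in iPS minus R1 (limma adjusted p 0.00497). Summed macrophage markers were 569 to 583 on iPS arrays and 620 to 643 on R1 arrays, against 424 to 461 on MEF arrays. Of 9 measured, 0 were called lower and 1 higher in each comparison, Cd68 at 1.12 in iPS cells and 1.36 in R1 cells. Endothelial markers summed to 802 to 887 on iPS arrays and 873 to 956 on R1 arrays, against 566 to 644 on MEF arrays. Of 9 measured, Emcn was called lower (-1.04 and -1.08) and Pecam1, which is also made by pluripotent cells, higher (1.81 and 2.07). Neural markers summed to 1135 to 1237 on iPS arrays and 1112 to 1166 on R1 arrays, against 1975 to 2310 on MEF arrays. Of 8 measured, Nes was called lower (-2.36 and -2.77), Neurod1 and Elavl3 were called higher in both comparisons, and the median was 0.29 in iPS cells and 0.25 in R1 cells. Markers of early mesoderm and endoderm summed to 937 to 1406 on iPS arrays and 1000 to 1043 on R1 arrays, against 934 to 993 on MEF arrays. Of 10 measured, Eomes was called higher (2.29 in iPS cells and 1.52 in R1 cells), and Gata6 was at -1.08, called lower, in iPS cells and -0.69 in R1 cells. No marker was at 0 on any array. Where these marker levels move with the groups, their part in the Hox values below was not tested. In such bulk RNA, fewer cells of a type and less RNA per cell cannot be told apart.

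Hox genes of every cluster were called lower in iPS cells than in MEF. Of the 37 members, 13 were called lower and 0 higher, where a call needs a limma adjusted p under 0.05 and a difference of at least 1 in log2(signal + 16). Over all 19938 genes 7.58% were called lower and 5.08% higher by the same rule. At the adjusted p alone, without a minimum difference, 28 of the 37 were lower and 0 higher, against 23.2% of all genes lower. The 3 iPS arrays lay below the 3 MEF arrays for 29 of 37 members, against 24.9% of all genes, and the difference was negative for 32 of 37. The median difference of the members was -0.72 and that of all genes was 0.02. Summed over the members, the signal was 2239 to 2422 on iPS arrays, against 4551 to 5073 on MEF arrays.

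R1 cells were lower than the same MEF arrays in much the same way, although the shared MEF arrays tie the 2 comparisons together. In R1 cells 12 of 37 members were called lower and 0 higher, against 7.94% of all genes called lower and 5.56% higher. The adjusted p alone was passed by 30 members, all lower, against 23% of all genes. The R1 arrays lay below the MEF arrays for 31 members, against 25.3% of all genes, and the median difference was -0.77, against 0.02 over all genes. The summed signal was 2173 to 2301 on R1 arrays. All 12 were also called in iPS cells, and Hoxa9, the remaining member called there, stood at -0.97 in R1 cells, just short of the minimum difference.

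**Figure D1:**
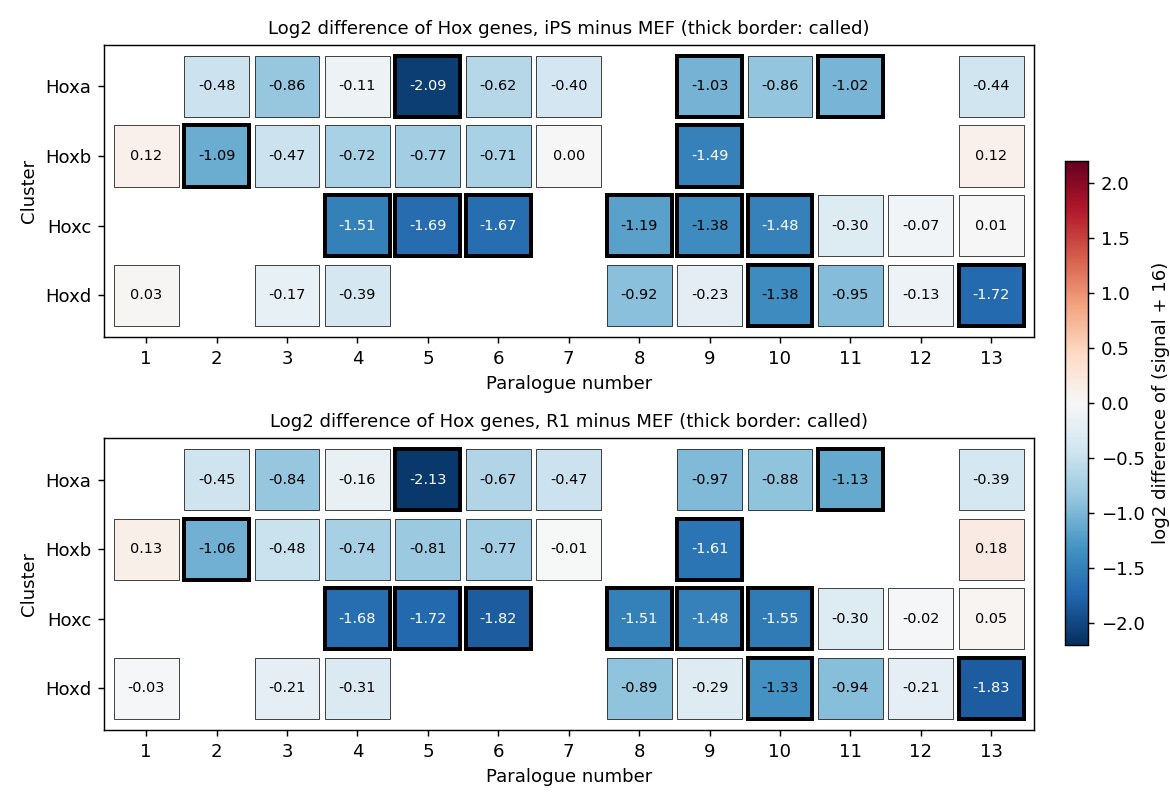
Log2 difference of each Hox gene in iPS minus MEF (upper panel) and R1 minus MEF (lower panel), with clusters in rows and paralogue numbers in columns. Blue is lower than MEF, a thick border marks a called gene, and empty cells hold no value here. The 6 called genes of the Hoxc cluster run from Hoxc4 to Hoxc10, with an empty cell between Hoxc6 and Hoxc8.

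The Hoxc cluster held 6 of the 13 called members. It has 9 genes, all measured, and its median difference was -1.38 in iPS cells and -1.51 in R1 cells. The 6 are its lower-numbered members, Hoxc4, Hoxc5, Hoxc6, Hoxc8, Hoxc9 and Hoxc10, which in the embryo are used from the neck and forelimb level down to the lumbar region. Hoxc4 had signals of 52.7, 47.2 and 48.2 on the iPS arrays and 44.02, 38.6 and 43.4 on the R1 arrays, against 141, 214 and 161 on the MEF arrays. For Hoxc5 the signals were 46.2, 38.9 and 52.3 on the iPS arrays and 44.6, 44.9 and 42.8 on the R1 arrays, against 159.8, 205 and 184 on the MEF arrays. Those of Hoxc6, a gene of the forelimb and upper thoracic level, were 33.4, 35.8 and 34.5 on the iPS arrays and 26.5, 36.3 and 26.4 on the R1 arrays, against 114, 172 and 154 on the MEF arrays. For these 3 genes each iPS and R1 array lay below each MEF array. Hoxc4 differed from MEF by -1.51 (SE 0.12) in iPS cells and -1.68 (SE 0.12) in R1 cells, with limma adjusted p-values of 3.05e-06 and 1.3e-06. Hoxc5 differed by -1.69 (SE 0.10) in iPS cells and -1.72 (SE 0.10) in R1 cells, with limma adjusted p-values of 3.06e-07 and 2.33e-07. That of Hoxc6 was -1.67 (SE 0.13) in iPS cells and -1.82 (SE 0.13) in R1 cells, with limma adjusted p-values of 2.82e-06 and 1.4e-06.

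Hoxc8, Hoxc9 and Hoxc10 followed. Hoxc8, which shapes thoracic vertebrae and ribs, had signals of 89.3, 83.9 and 83.3 on the iPS arrays and 83.3, 56.1 and 58.9 on the R1 arrays, against 211, 211 and 224 on the MEF arrays. The R1 arrays of Hoxc8 were uneven, with 1 at the level of the iPS arrays and the other two lower, and all 6 were below MEF. Its differences were -1.19 (SE 0.11) in iPS cells and -1.51 (SE 0.11) in R1 cells, with limma adjusted p-values of 7.07e-06 and 1.21e-06. Hoxc9, a determinant of thoracic motor neurons, had signals of 85.04, 74.03 and 79.3 on the iPS arrays and 75.6, 76.6 and 66.3 on the R1 arrays, against 193, 259.6 and 247 on the MEF arrays. Hoxc10, used at the lumbar and hindlimb level, had signals of 48.2, 46.9 and 44.6 on the iPS arrays and 47.2, 43.1 and 40.8 on the R1 arrays, against 158, 147 and 171 on the MEF arrays. Neither gene's MEF arrays overlapped those of the other groups. Hoxc9 differed by -1.38 (SE 0.10) in iPS cells and -1.48 (SE 0.10) in R1 cells, with limma adjusted p-values of 1.9e-06 and 1.05e-06. For Hoxc10 the differences were -1.48 (SE 0.06) in iPS cells and -1.55 (SE 0.06) in R1 cells, with limma adjusted p-values of 4.85e-08 and 3.2e-08.

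The 3 highest-numbered genes of the cluster departed from this. Hoxc11 was dim on every array, with 24.9 ± 1.73 in iPS cells and 24.98 ± 3.35 in R1 cells, against 34.4 ± 2.31 in MEF (mean and SD of 3 arrays), and its difference of -0.30 (SE 0.07) in iPS cells passed the adjusted p (0.00411, limma) but not the minimum difference. Hoxc12 and Hoxc13, a regulator of hair and nail keratins, were measured at -0.07 and 0.01 in iPS cells, and their arrays overlapped between the groups. Hoxc13 averaged 52.9 ± 3.13 in iPS cells and 54.9 ± 2.44 in R1 cells, against 52.4 ± 0.964 in MEF.

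In the Hoxa cluster 3 of 10 measured genes were called lower in iPS cells and 2 in R1 cells, with medians of -0.74 and -0.76. Hoxa5, which is needed for the cervical and upper thoracic skeleton and for the lung, had signals of 54.2, 58.9 and 65.8 on the iPS arrays and 48.2, 65.8 and 59.7 on the R1 arrays, against 263, 349.7 and 311 on the MEF arrays. The lowest MEF array was several times the brightest array of the other groups. Its difference was -2.09 (SE 0.12) in iPS cells and -2.13 (SE 0.12) in R1 cells, with limma adjusted p-values of 2.53e-07 and 1.97e-07. That was the most negative difference of all 37 members in both comparisons. In RefSeq the span of Hoxa3 overlaps those of Hoxa4, Hoxa5 and Hoxa6, so their probe sets may pick up shared transcripts and these 4 signals are uncertain as measures of separate genes.

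Hoxa9 and Hoxa11 were closer to the minimum difference. Hoxa9, known from blood progenitors and the lower thoracic skeleton, had signals of 56.1, 43.7 and 48.8 on the iPS arrays and 50.9, 56.9 and 48.8 on the R1 arrays, against 112, 125 and 116 on the MEF arrays. Hoxa11, which with Hoxd11 builds the forearm, had signals of 46.9, 47.5 and 47.2 on the iPS arrays and 42.5, 41.9 and 42.5 on the R1 arrays, against 121, 107 and 108 on the MEF arrays. For both genes the MEF arrays lay above all others. Hoxa9 differed from MEF by -1.03 (SE 0.08) in iPS cells and -0.97 (SE 0.08) in R1 cells, with limma adjusted p-values of 1.95e-06 and 2.75e-06. Its call was lost in iPS cells without iPS replicate 2 (-0.97) or MEF replicate 2 (-0.99). In R1 cells it was called without R1 replicate 2 (-1.02) or MEF replicate 1 (-1.005). Hoxa11 differed by -1.02 (SE 0.05) in iPS cells and -1.13 (SE 0.05) in R1 cells, with limma adjusted p-values of 1.14e-07 and 5.08e-08, and its iPS call was lost without MEF replicate 1 (-0.97).

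The other 7 measured Hoxa genes were all at negative differences. They ran in iPS cells from -0.86 for Hoxa10 to -0.11 for Hoxa4. Hoxa10, which marks the lumbar region and the uterus, had signals of 66.3, 58.1 and 58.5 on the iPS arrays and 66.7, 50.2 and 63.1 on the R1 arrays, against 103, 158 and 115 on the MEF arrays, with no overlap between pluripotent groups and MEF. Its difference was -0.86 (SE 0.13) in iPS cells and -0.88 (SE 0.13) in R1 cells, with limma adjusted p-values of 0.000378 and 0.000306. Hoxa3, a gene of the pharyngeal arches and thymus, was at -0.86. Hoxa2, which sets the identity of the second pharyngeal arch, was at -0.48, Hoxa6 at -0.62, Hoxa7 at -0.40 and Hoxa13, a gene of the digits and genital tubercle, at -0.44. Of these 7, only Hoxa4 failed the adjusted p in iPS cells (0.232, limma).

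In the Hoxb cluster 2 of 9 measured genes were called lower in each comparison, with medians of -0.71 in iPS cells and -0.74 in R1 cells. Hoxb9, used at the thoracic level and in rib patterning, had signals of 159, 167 and 153 on the iPS arrays and 124, 167 and 147 on the R1 arrays, against 458, 530.1 and 443 on the MEF arrays. Hoxb2, a gene of the hindbrain segments, had signals of 57.3, 61.8 and 73.01 on the iPS arrays and 66.7, 66.3 and 63.6 on the R1 arrays, against 131, 168 and 167 on the MEF arrays. For both genes all MEF arrays were brighter than all others. Hoxb9 differed by -1.49 (SE 0.10) in iPS cells and -1.61 (SE 0.10) in R1 cells, with limma adjusted p-values of 8.39e-07 and 4.39e-07. Hoxb2 differed by -1.09 (SE 0.10) in iPS cells and -1.06 (SE 0.10) in R1 cells, with limma adjusted p-values of 6.98e-06 and 8.07e-06.

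The central Hoxb genes differed less. Hoxb3, Hoxb4, Hoxb5 and Hoxb6 lay between -0.77 and -0.47 in iPS cells and between -0.81 and -0.48 in R1 cells, and their MEF arrays did not overlap the others. Hoxb4, known as a regulator of blood stem cells, averaged 67.2 ± 2.87 in iPS cells and 66.3 ± 6.06 in R1 cells, against 121 ± 4.198 in MEF. The spans of Hoxb3 and Hoxb4 overlap in RefSeq, so these signals too are uncertain as separate measures. Hoxb7, Hoxb1 and Hoxb13 showed no lower signal in iPS cells. Hoxb7 averaged 67.7 ± 8.504 in iPS cells and 66.4 ± 0.266 in R1 cells, against 67.2 ± 0.809 in MEF. Hoxb1, which defines a segment of the hindbrain, had signals of 107, 93.1 and 93.1 on the iPS arrays and 109.9, 93.1 and 93.1 on the R1 arrays, against 93.1, 79.9 and 93.1 on the MEF arrays. Hoxb13, a gene of the tail end and the prostate, averaged 42.8 ± 8.76 in iPS cells and 45.2 ± 4.74 in R1 cells, against 37.98 ± 3.501 in MEF. The arrays of these genes overlapped between all groups, with differences of 0.00, 0.12 and 0.12 in iPS cells and -0.01, 0.13 and 0.18 in R1 cells.

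In the Hoxd cluster 2 of 9 genes were called lower in each comparison, both from its tail-end part, with medians over the cluster of -0.39 in iPS cells and -0.31 in R1 cells. Hoxd13, the gene of the digits, had signals of 80.4, 85.04 and 77.7 on the iPS arrays and 75.1, 83.9 and 62.7 on the R1 arrays, against 288, 286 and 338 on the MEF arrays. Hoxd10, used in the lumbar spinal cord and the hindlimb, had signals of 77.2, 61.4 and 51.98 on the iPS arrays and 65.3, 69.6 and 62.2 on the R1 arrays, against 155, 198 and 218 on the MEF arrays. In both genes the dimmest MEF array exceeded the brightest of the other 6. Hoxd13 differed by -1.72 (SE 0.09) in iPS cells and -1.83 (SE 0.09) in R1 cells, with limma adjusted p-values of 2.2e-07 and 1.24e-07. Hoxd10 differed by -1.38 (SE 0.13) in iPS cells and -1.33 (SE 0.13) in R1 cells, with limma adjusted p-values of 1.17e-05 and 1.44e-05. Hoxd10 and Hoxd11 overlap in RefSeq and are uncertain as separate measures.

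Hoxd11 and Hoxd8 were just short of a call. Hoxd11 had signals of 108, 86.2 and 103 on the iPS arrays and 108, 105 and 86.2 on the R1 arrays, against 190, 179.8 and 252 on the MEF arrays. For Hoxd8 they were 33.1, 28.2 and 30.3 on the iPS arrays and 28.8, 32.4 and 33.6 on the R1 arrays, against 70.03, 80.4 and 66.7 on the MEF arrays. Neither gene's MEF arrays overlapped the others, and their differences were -0.95 and -0.92 in iPS cells and -0.94 and -0.89 in R1 cells. Hoxd11 was called in iPS cells without iPS replicate 1 (-1.01) or MEF replicate 2 (-1.04), and in R1 cells without MEF replicate 2 (-1.03). At the head end, Hoxd1 averaged 58.4 ± 1.42 in iPS cells and 55.4 ± 2.95 in R1 cells, against 56.8 ± 0.227 in MEF. Its arrays overlapped, as those of Hoxd9 and Hoxd12 did between iPS cells and MEF. Hoxd3 and Hoxd4, which overlap in RefSeq, were at -0.17 and -0.39 in iPS cells and passed the adjusted p only. Hoxd9, at -0.23, and Hoxd12, at -0.13, did not pass it in iPS cells (limma adjusted p-values of 0.0916 and 0.146).

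**Figure D2:**
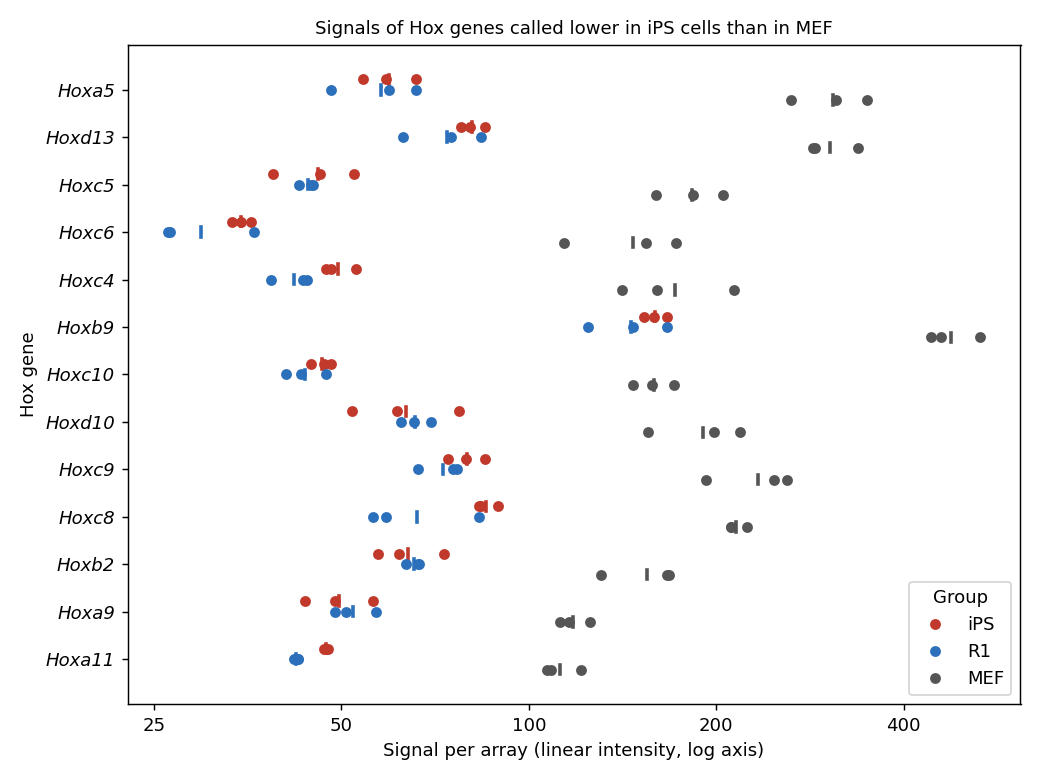
Signal on each array (linear intensity, log axis) of the 13 Hox genes called lower in iPS cells than in MEF, with a point per array and a tick at each group mean. For all 13 genes the 3 MEF points lie to the right of the 3 iPS and 3 R1 points, while iPS and R1 points mingle for most genes.

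Calls can also be counted by paralogue number, against 7.58% of all genes called lower in iPS cells and 7.94% in R1 cells. In iPS cells 1 of 7 members of groups 1 to 3 was called lower, Hoxb2, with a median of -0.47. Groups 4 to 8 had 5 of 14 called and a median of -0.74, and groups 9 to 13 had 7 of 16 and a median of -0.90. The last part was itself uneven, with 2 of 9 in groups 11 to 13 and 10 of 21 in groups 4 to 10. In R1 cells the counts were 1 of 7, 5 of 14 and 6 of 16. Group 9 had 3 of 4 members called in iPS cells and groups 5 and 10 had 2 of 3 each, while groups 1, 3, 7 and 12 had 0. An unadjusted limma p under 0.05 was reached by 51.8% of all genes in iPS against MEF and 52.8% in R1 against MEF. By that measure group 3 had 3 of 3, group 7 had 1 of 2 and group 1 had 0 of 2 in both comparisons. Group 12 had 0 of 2 in iPS cells and 1 of 2, Hoxd12, in R1 cells. Members of a paralogue group differed among themselves. In group 13 Hoxd13 was at -1.72 in iPS cells, and Hoxb13 and Hoxc13 at 0.12 and 0.01. Within group 5 Hoxa5 and Hoxc5 were called, and Hoxb5 (-0.77) was not. These counts are descriptions, and the clusters and groups were not tested against each other. Probe sets differ in brightness, and log2(signal + 16) understates the differences of dim ones: the called members averaged 112 to 477 in MEF and the others 34.4 to 207.

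The iPS cells did not differ from R1 cells past the adjusted p at any Hox gene. Of 37 members 0 were called in iPS against R1, against 0.461% of all genes called either way, and 0 passed limma's adjusted p without a minimum difference, against 8.52% of all genes. At an unadjusted p under 0.05 there were 2, against 20.6% of all genes. Differences ran from -0.07 to 0.32, with 24 positive and 13 negative and a median of 0.03. The 3 iPS arrays lay above the 3 R1 arrays for 2 members and below them for 1, against 9.84% and 12.1% of all genes. The 95% interval lay within 0.5 of 0 for 36 members and within 1 for all 37. Hoxc8 was beyond 0.5 at 0.32 (SE 0.11), with an interval of 0.08 to 0.56, an unadjusted p of 0.0139 and a limma adjusted p of 0.108. Its signals were 89.3, 83.9 and 83.3 on the iPS arrays and 83.3, 56.1 and 58.9 on the R1 arrays, which touch at the lowest iPS and the highest R1 value. Hoxa11 was the other gene with an unadjusted p under 0.05, at 46.9, 47.5 and 47.2 on the iPS arrays and 42.5, 41.9 and 42.5 on the R1 arrays, without overlap and with a difference of 0.12 (unadjusted p 0.0437, limma adjusted p 0.223). Beside these values, the summed fibroblast markers were 3662 to 4570 on iPS arrays and 2787 to 3714 on R1 arrays. Of the 12 markers 0 were called in iPS against R1, with 10 differences positive and 2 negative. By limma's adjusted p alone 2 were higher and 0 lower in iPS cells, against 8.52% of all genes either way. The part of these markers in the Hox signals was not tested.

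Of the genes called against MEF, Hoxa5, which differed most from MEF, was at 0.04 between iPS and R1 cells with an interval of -0.22 to 0.30. For Hoxd13 the difference was 0.12 (-0.09 to 0.33) and for Hoxc6 0.15 (-0.14 to 0.45). The difference of Hoxc4 was 0.17 (-0.10 to 0.44), and its 3 iPS arrays lay above its 3 R1 arrays. All of these intervals include 0, and none reaches the size of the same gene's difference from MEF. The intervals do not show that the levels are equal. In both groups these genes averaged below the median signal of all genes, where differences are compressed.

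**Figure D3:**
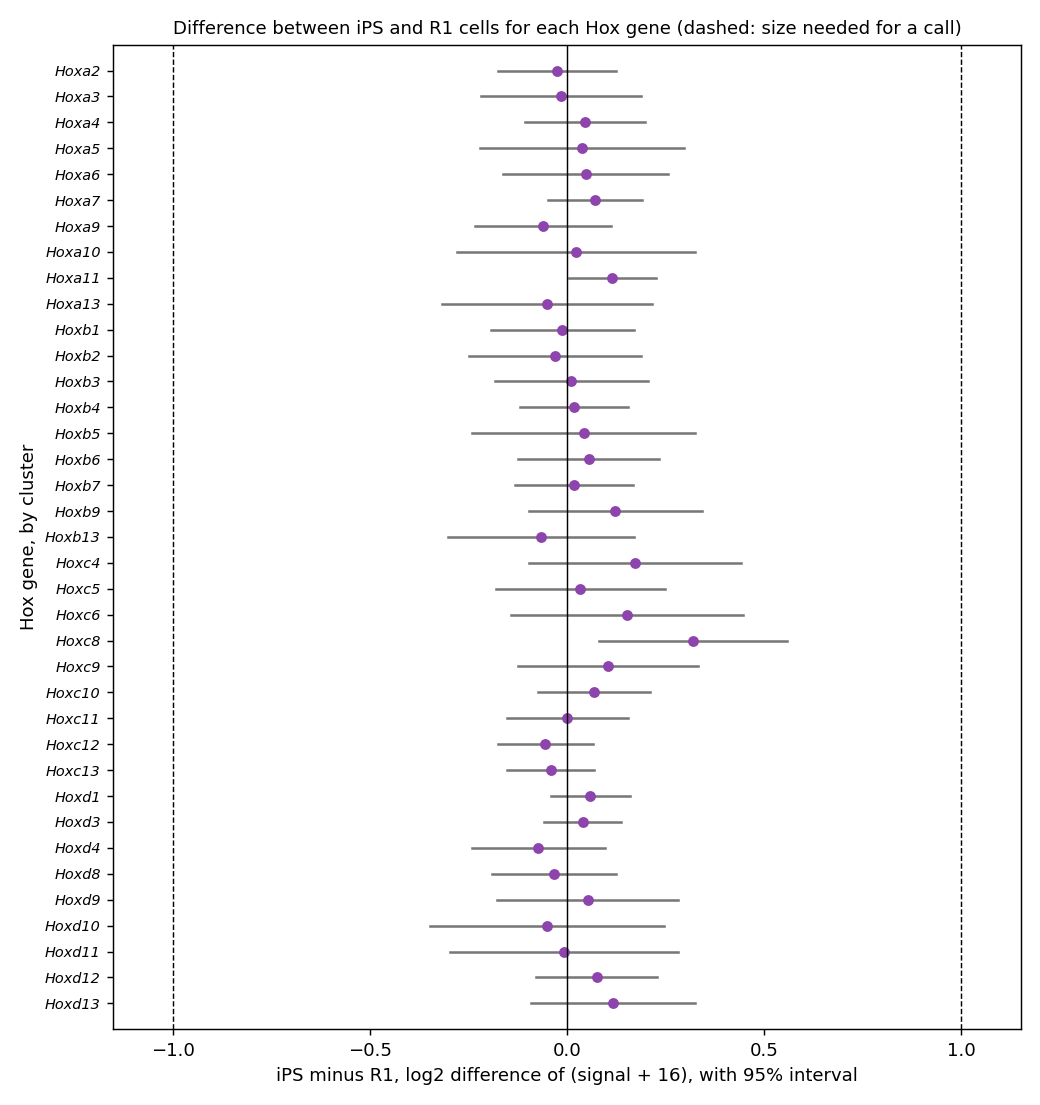
Log2 difference, iPS minus R1, of each of the 37 Hox genes with its 95% interval from the limma fit, in cluster order, with dashed lines at the difference of 1 that a call needs. Every interval lies inside the dashed lines, and Hoxc8 reaches farthest to the right, at 0.56.

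Hox proteins bind DNA together with homeodomain proteins of the TALE class, and 3 of the 10 measured were called lower in both pluripotent groups and 0 higher. Of all genes 7.58% were called lower and 5.08% higher in iPS cells, and 7.94% and 5.56% in R1 cells. Meis1, which binds beside Hox proteins, had signals of 88.6, 77.2 and 102 on the iPS arrays and 76.1, 94.4 and 67.2 on the R1 arrays, against 523, 657 and 617 on the MEF arrays. For its paralogue Meis2 they were 111, 79.9 and 82.1 on the iPS arrays and 51.98, 84.4 and 48.5 on the R1 arrays, against 516, 534 and 553 on the MEF arrays. Both were several times brighter on each MEF array than on any other. Meis1 differed by -2.55 (SE 0.13) in iPS cells and -2.695 (SE 0.13) in R1 cells, with limma adjusted p-values of 1.21e-07 and 7.33e-08. Meis2 differed by -2.37 (SE 0.16) in iPS cells and -2.85 (SE 0.16) in R1 cells, with limma adjusted p-values of 1.18e-06 and 2.94e-07. Pknox2, of the related Prep family, was the third, at -1.07 in iPS cells and -1.27 in R1 cells. The other seven were not called. Of the Pbx partners proper, Pbx2 was at 0.05 in iPS cells and -0.13 in R1 cells, Pbx3 at -0.84 and -0.98, and Pbx4 at 0.24 and 0.17. Tgif1, a repressor of the same class, was at 0.70 and 0.62, and Tgif2 at 0.38 and 0.43. By the adjusted p alone 5 genes were lower and 2, Tgif1 and Tgif2, higher in each comparison. Over all genes 23.2% and 23% were lower by this measure in iPS and R1 cells, and 4945 and 5162 of 19938 were higher. The list's median was -0.44 in iPS cells and -0.50 in R1 cells.

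Of the 6 Cdx and ParaHox genes, 0 were called in any comparison. Called either way were 12.7% of all genes in iPS against MEF, 13.5% in R1 against MEF and 0.461% in iPS against R1. The Cdx genes switch on Hox clusters in the embryo's tail end, and the ParaHox genes are their sister cluster. At an unadjusted limma p under 0.05 there were 2 in iPS against MEF, 1 in R1 against MEF and 1 in iPS against R1, against 51.8%, 52.8% and 20.6% of all genes. Cdx2 averaged 84.4 ± 15.8 in iPS cells and 74.96 ± 7.54 in R1 cells, against 64.04 ± 8.22 in MEF. Cdx1 averaged 203 ± 23.1 in iPS cells and 172 ± 5.56 in R1 cells, against 162 ± 15.1 in MEF.

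Genes next to the clusters and embedded in them were counted as a list too. Of 22 measured neighbours and genes embedded in the clusters, 0 were called lower in either comparison with MEF, while 1 was called higher in iPS cells and 2 in R1 cells. Over all genes the shares were 7.58% lower and 5.08% higher in iPS cells, and 7.94% and 5.56% in R1 cells. By the adjusted p alone 3 were lower in each comparison, Lnpk, Hoxaas2 and Mir196a-1, while 6 were higher in iPS cells and 5 in R1 cells. Over all genes 23.2% and 23% were lower by this measure in iPS and R1 cells, and 4945 and 5162 of 19938 were higher. The list's median was 0.03 in iPS cells and 0.00 in R1 cells. At an unadjusted limma p under 0.05 the list held 11 genes in iPS cells and 8 in R1 cells, against 51.8% and 52.8% of all genes. Evx1 and Evx2, homeobox genes that adjoin the tail ends of Hoxa and Hoxd, were at 0.09 and -0.01 in iPS cells. Mtx2, a mitochondrial import gene that borders Hoxd on the other side, was at 0.01, and Skap1, which flanks Hoxb, at 0.10. On the sides of Hoxc, Smug1 was at -0.08 and Calcoco1 at 0.49, with a limma adjusted p of 0.000531 but no call. Of other neighbours that passed the adjusted p without a call, Lnpk was at -0.45, Hibadh at 0.64, Cbx1 at 0.96 and Cbx3 at 0.24 in iPS cells. Skap2, an adaptor protein gene next to the head end of Hoxa, had signals of 309, 383 and 393 on the iPS arrays and 446, 468 and 410.1 on the R1 arrays, against 184, 237 and 217 on the MEF arrays. It was at 0.72 in iPS cells, not called, and was called higher in R1 cells at 1.01. Its difference between iPS and R1 cells was -0.28 with a limma adjusted p of 0.171. Snx10, a sorting nexin gene near Hoxa, was higher in both, at 1.35 and 1.35.

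Among the microRNA genes shown above, the Mir196a-1 probe set differed. Its signals were 29.7, 34.8 and 28.2 on the iPS arrays and 36.5, 25.99 and 38.1 on the R1 arrays, against 50.6, 72.0 and 54.2 on the MEF arrays. Every MEF array was brighter than the others, with differences of -0.67 (SE 0.12) in iPS cells and -0.60 (SE 0.12) in R1 cells, with limma adjusted p-values of 0.00118 and 0.00239, which passed the adjusted p but not the minimum difference. Mir10a, Mir10b, Mir196a-2 and Mir196b were at -0.12, -0.00, -0.13 and -0.19 in iPS cells, and 0 of these 4 passed the adjusted p in either comparison. Such a probe set measures RNA of the precursor's locus, not the mature microRNA.

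Retinoic acid opens Hox clusters in order, and 18 genes of its pathway were measured. In iPS cells 3 were called lower and 1 higher, and in R1 cells 4 were lower and 1 higher. The shares of all genes were 7.58% lower and 5.08% higher in iPS cells, and 7.94% and 5.56% in R1 cells. Aldh1a2 and Aldh1a3 make retinoic acid. Aldh1a2 was at -1.02 in iPS cells and -1.33 in R1 cells, and Aldh1a3 at -1.48 and -1.47. Crabp1, which binds retinoic acid in the cytoplasm, was at -2.12 and -1.86. Rdh10, an enzyme of the step before, was at -0.79 in iPS cells, not called, and was called lower in R1 cells at -1.19. Its difference between iPS and R1 cells was 0.39, with a limma adjusted p of 0.0384 and no call. Cyp26a1, which degrades retinoic acid, had signals of 134, 76.1 and 79.3 on the iPS arrays and 57.7, 57.7 and 58.1 on the R1 arrays, against 36.5, 26.2 and 30.7 on the MEF arrays. It was called higher in iPS cells at 1.22 (SE 0.17), but not in R1 cells at 0.65 (SE 0.17). The difference between iPS and R1 cells, 0.57 (SE 0.17), had a limma adjusted p of 0.0699. The first iPS array stood above the other two. Of the same enzyme family, Cyp26b1 went the other way, at -0.81 in iPS cells and in R1 cells, without a call. Its limma adjusted p-values were 2.81e-06 and 2.73e-06. Cyp26c1 was at 0.02 and 0.06. By the adjusted p alone 11 of the 18 were lower and 3 higher in iPS cells, and 10 and 3 in R1 cells. Over all genes 23.2% and 23% were lower by this measure, and 4945 and 5162 of 19938 were higher. Rarg, a receptor, was at 0.99 in iPS cells, not called, and was called higher in R1 cells at 1.18, with -0.19 between iPS and R1 cells (limma adjusted p 0.407).

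Polycomb subunits, which hold Hox clusters silent in embryonic stem cells, were called higher more often than lower. Of 31 measured, iPS against MEF called 13 higher and 2 lower, and so did R1 against MEF. Higher calls covered 5.08% of all genes in iPS cells and 5.56% in R1 cells, and lower calls 7.58% and 7.94%. Jarid2, which helps place the methylating complex on DNA, had signals of 2740.1, 2702 and 3061 on the iPS arrays and 3444, 3616 and 3397 on the R1 arrays, against 223, 251 and 232 on the MEF arrays. Its differences were 3.503 (SE 0.06) in iPS cells and 3.801 (SE 0.06) in R1 cells, with limma adjusted p-values of 5.04e-10 and 3.41e-10. Phc1, of the other complex, was at 2.89 and 3.03, and Mtf2, a partner of the methylating complex, at 2.31 and 2.56. Cbx7, which binds the Polycomb mark, was at 2.495 and 2.38. Core subunits of the methylating complex were Eed at 1.68 and Suz12 at 1.46 in iPS cells, both called, and its enzyme Ezh2 at 0.94, not called. Bmi1, known for restraining Hox genes in the mouse embryo, was lower, at -1.39 in iPS cells and -1.43 in R1 cells, and so was Yaf2, at -1.46 and -1.56. The values of these genes were not related to those of the Hox genes by any test.

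The trithorax group, which keeps Hox genes active, was listed with Uty and the demethylases that remove the Polycomb mark, and 18 genes were measured. Of these 4 were called higher in iPS cells and 7 in R1 cells, and 0 lower, where all genes gave 5.08% higher and 7.58% lower in iPS cells, and 5.56% and 7.94% in R1 cells. At an unadjusted limma p under 0.05 there were 15 in each comparison, in both directions, against 51.8% and 52.8% of all genes. By the adjusted p alone 10 were higher and 5 lower in each comparison. Of all genes 23.2% and 23% were lower by that measure in iPS and R1 cells, and 4945 and 5162 of 19938 were higher. Dpy30, Wdr5 and Ash2l, shared subunits of the methylating complexes of this group, were at 1.404, 1.12 and 1.06 in iPS cells and at 1.64, 1.62 and 1.299 in R1 cells. Uty, on the Y chromosome, was also called higher in iPS cells than in R1 cells.

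Genes of body position outside the Hox clusters were also called lower. Of 25 limb and positional factors, 8 were called lower and 2 higher in iPS cells, and 10 lower and 3 higher in R1 cells, with medians of -0.80 and -0.86. Lower calls made up 7.58% of all genes in iPS cells and 7.94% in R1 cells, and higher calls 5.08% and 5.56%. Tbx15, a gene of limb and skin patterning, had signals of 47.2, 47.2 and 40.5 on the iPS arrays and 28.6, 38.3 and 31.8 on the R1 arrays, against 560.3, 639 and 617 on the MEF arrays. Its differences were -3.35 (SE 0.08) in iPS cells and -3.67 (SE 0.08) in R1 cells, with limma adjusted p-values of 2.49e-09 and 1.35e-09. Prrx1, a homeobox gene of limb mesenchyme, was at -3.07 and -3.600, and Twist1, of the same tissue, at -2.16 and -2.47. The genes called higher were Sall4 (4.18 and 4.15) and Sall1 (2.76 and 3.74), and Sall3, which was at 0.70 in iPS cells and called in R1 cells at 1.03. The difference of Sall3 between iPS and R1 cells was -0.34 (limma adjusted p 0.141). In iPS against R1, 0 of the 25 were called, against 0.461% of all genes either way. By the adjusted p alone 1 was lower and 2 higher in iPS cells, against 8.52% of all genes either way. Sall1 was at -0.98 (limma adjusted p 8.61e-05), with every iPS array below every R1 array. Prrx1 was at 0.53 and Tbx15 at 0.32 (limma adjusted p-values of 0.0235 and 0.0458). Sall4 acts in limbs but is also a factor of pluripotent cells.

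Head and anterior homeobox genes were a further list. Its counts are to be read against 7.58% of all genes lower and 5.08% higher in iPS cells, and 7.94% and 5.56% in R1 cells. Of 21 measured, 0 were called lower and 1 higher in each comparison with MEF, with medians of 0.07 in iPS cells and 0.05 in R1 cells. At an unadjusted limma p under 0.05 there were 10 in iPS cells and 9 in R1 cells, against 51.8% and 52.8% of all genes. The gene called higher was Otx2, a gene of the forebrain and of the early epiblast, with signals of 307, 193 and 383 on the iPS arrays and 910.2, 508 and 879 on the R1 arrays, against 55.7, 47.2 and 44.6 on the MEF arrays. All 3 iPS arrays were below all 3 R1 arrays, and all 6 were above MEF.

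**Figure D4:**
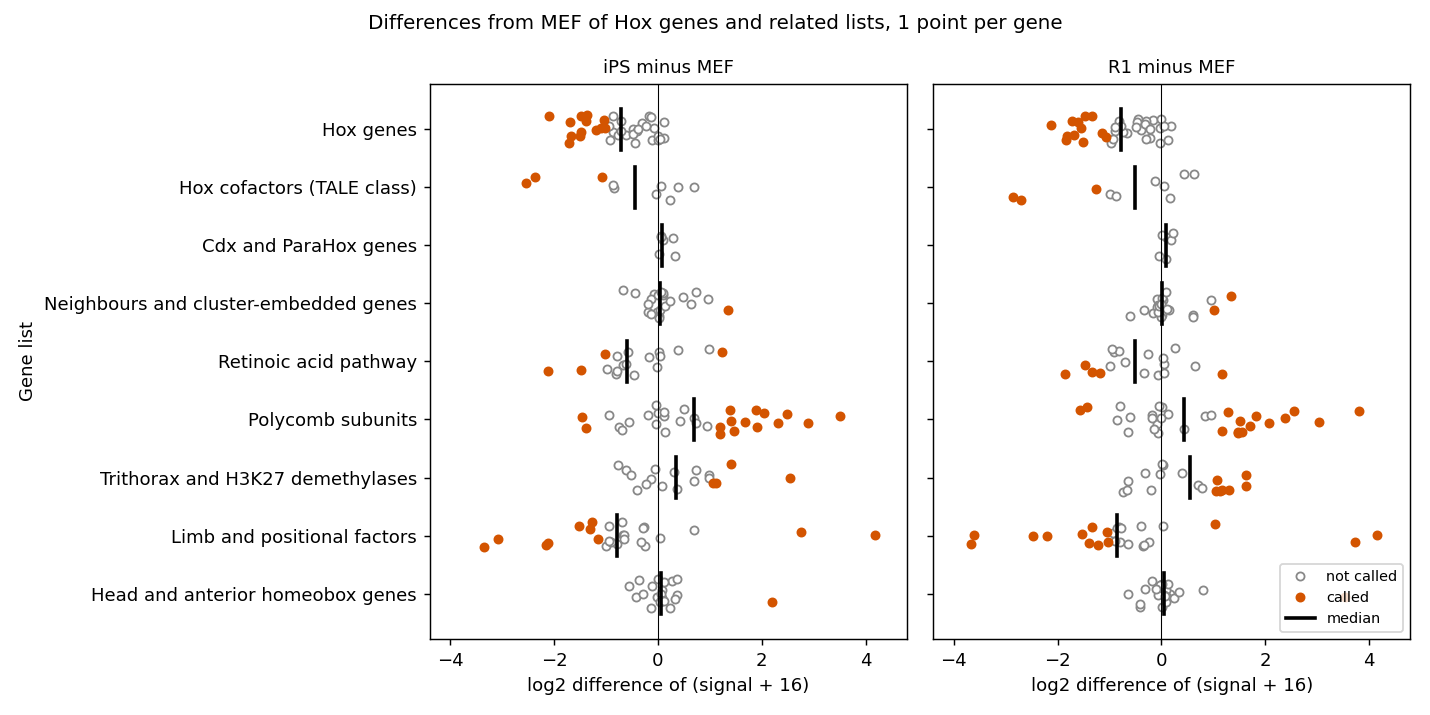
Log2 difference from MEF of each measured gene of the Hox clusters and of 8 related lists, in iPS cells (left panel) and R1 cells (right panel), with a point per gene, filled where called, and a bar at each list's median. The Hox genes lie almost entirely at or below 0, the neighbours of the clusters and the head homeobox genes have medians near 0 with Snx10 and Otx2 farthest above them, and the Polycomb subunits reach to 3.50 in iPS cells and 3.80 in R1 cells.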

How the data were processed

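RNA of 3 iPS, 3 R1 and 3 MEF cultures was labelled with the manufacturer's whole-transcript kits, per the labels' protocols. The files hold an intensity on a linear scale for each probe set and array, as deposited. Per the submitters' processing notes GCOS 1.4 was used, without a role. The array's design, its scan dates and any background correction or normalization were not given in the sources used here. All values turned out to be powers of 2 whose exponents have 2 decimals, to within 7e-10. Array medians on the log2 scale lay between 6.29 and 6.38, so no further normalization was applied. Without detection calls a dim gene is not told apart from background. Precision was limited by 3 arrays per group. The repeats are called biological, but separate derivations are not stated, so the p-values cover only the spread between cultures, which may be technical.

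The platform annotation gave exactly 1 symbol to 21789 of the 35557 probe sets and several to 1621, and 12147 are unnamed here. A RefSeq gene table (GRCm38.p6) held 21698 of the 21789 by Entrez identifier and changed 0 symbols, and it served for names and neighbours. Where a gene had several probe sets (999 genes), that with the highest mean was kept, which left 19938 genes. Coordinates are those of the RefSeq promoter table.

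One limma fit (version 3.58.1 in R 4.3.3, lmFit and eBayes) with a mean for each group took log2(signal + 16) of all 9 arrays, with 6 residual degrees of freedom and Benjamini-Hochberg adjustment over all 19938 genes. Genes were called at an adjusted p under 0.05 and a difference of at least 1. Differences are log2(signal + 16), iPS or R1 minus MEF, or iPS minus R1, with the fit's standard error. The members, the related lists, the markers and the rule for named genes were chosen with earlier results of these data known. By that rule called members are given per array, and related lists by up to 3 called genes per direction and comparison, plus every called gene of a list with 5 or fewer calls. Pbx2, Pbx3, Pbx4, Tgif1, Tgif2, Cdx1, Cdx2, Cyp26b1, Cyp26c1, Eed, Suz12, Ezh2, the flanking, non-coding and microRNA genes and the cell type markers were named outside it, after their values were seen. Scripts were tested on simulated data. Samples with the same replicate number were checked for pairing: 4 of 9 correlations of their deviations were over 0.1, within -0.08 to 0.24. Those of replicate 1 were 0.23 (iPS and MEF), 0.21 (R1 and MEF) and 0.24 (iPS and R1). The numbers were not used to pair samples, because the labels do not say that they mark a shared culture, batch or day. Alternatives covered normalization, pseudocount, dim genes, probe sets, thresholds, array weights, an intensity trend, the replicate block and leaving out each array.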

Additional observations from a re-analysis of the deposited data

Results flagged for a closer look

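The effect against MEF differed between iPS and R1 cells for 2 genes of the related lists and 0 of the 37 Hox genes, by the limma test of the difference itself with a minimum difference of 1. Uty, a gene on the Y chromosome, was 1.39 (SE 0.09) in iPS minus R1, with a limma adjusted p of 6.06e-05. Its signals were 798, 838 and 949 on the iPS arrays and 319.6, 352 and 288 on the R1 arrays, against 119, 144 and 139 on the MEF arrays. All 3 iPS arrays lay above all 3 R1 arrays, and all 6 above MEF. The labels do not give the sex of the cultures, and its part in the Uty signals was not tested. Otx2, a head and epiblast homeobox gene, was -1.34 (SE 0.26) in iPS minus R1, with a limma adjusted p of 0.0132, and its 3 iPS arrays lay below its 3 R1 arrays. Its differences from MEF were 2.203 (SE 0.26) in iPS cells and 3.54 (SE 0.26) in R1 cells. No group had the 4 or more arrays that a test for outlying arrays needs.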

How the results depend on the processing

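Of 22 alternatives to the settings used, 13 changed the processing or the test and 9 left out 1 array each. In iPS against MEF 13 Hox genes were called, and 12 to 14 when an array was left out. In R1 against MEF 12 were called, and 12 to 13 when an array was left out. In iPS against R1 0 were called under each of the 22. No direction was reversed for a Hox gene called under the main settings or under the alternative. Sign changes of genes called under neither were not counted. With a pseudocount of 64 the count in iPS against MEF was 8, and with a test against a difference of 1 it was also 8. Under both, the genes lost were Hoxa9, Hoxa11, Hoxb2, Hoxc8 and Hoxd10. In R1 against MEF both settings gave 9. Without a minimum difference the counts were 28 in iPS and 30 in R1 against MEF. With a pseudocount of 0 they were 17 and 17, with Hoxa3, Hoxa10, Hoxd8 and Hoxd11 added in both, since dim genes are then less compressed. Array weights gave 13 and 13, with Hoxd11 added in both (-1.17 and -1.11) and Hoxa11 lost in iPS cells. Leaving out dim genes kept 30 of 37 members and gave 13 and 12, and the remaining alternatives gave 13 and 12 too. With the replicate number as a block the fit called 13, 12 and 0, so the block changed no call among the counts, and the labels do not say that a number pairs samples. Hoxa9, Hoxa11 and Hoxd11 were the genes whose calls changed with a left-out array. Without detection calls, a lower limit on what dim probe sets can show is not known.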

Other observations

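A probe set annotated to both Hoxb8 and Hoxb7 belongs to neither gene alone and was not a member. Its signals were 35.3, 34.1 and 35.02 on the iPS arrays and 35.3, 34.5 and 34.3 on the R1 arrays, against 41.9, 38.1 and 36.5 on the MEF arrays. It differed by -0.11 in both comparisons with MEF, with limma adjusted p-values of 0.0906 in iPS cells and 0.0823 in R1 cells.

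Of the non-coding genes inside the Hoxa cluster or at its tail end, Hoxaas2 averaged 44.3 ± 2.27 in iPS cells and 45.1 ± 1.76 in R1 cells, against 52.6 ± 4.77 in MEF (mean and SD of 3 arrays). It differed by -0.19 (SE 0.06) in iPS cells and -0.17 (SE 0.06) in R1 cells, with limma adjusted p-values of 0.0267 and 0.0427, and was not called. Hottip, known for acting on the tail-end Hoxa genes, averaged 34.2 ± 2.02 in iPS cells and 33.4 ± 0.134 in R1 cells, against 32.7 ± 0.679 in MEF, with differences of 0.04 and 0.02 and adjusted p-values of 0.483 and 0.735.

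Hoxa13 and Hoxc12 each had the same value on all 3 R1 arrays, 64.9, 64.9 and 64.9 for Hoxa13 and 37.01, 37.01 and 37.01 for Hoxc12. The 3 iPS arrays of Hoxa13, at 60.97, 61.8 and 63.6, lay just below them, and its MEF arrays, at 109.9, 95.01 and 68.6, were spread more widely.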
